A study of Mus musculus with 9 samples.

Results

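The T-box transcription factors described here are 10 genes chosen by name: T (brachyury), Eomes, Tbx1, Tbx2, Tbx3, Tbx4, Tbx5, Tbx6, Tbx18 and Tbx20. Each was found in the deposited tables, which hold 48440 genes, and 9 of the 10 carried enough reads to be tested among 20838 genes. The RNA came from J1 mouse embryonic stem cells of the genotype Suz12-AID, in which Suz12 carries a tag that lets the plant hormone auxin trigger its degradation. Suz12 is needed for the activity of PRC2, Polycomb repressive complex 2. All 3 groups share this genotype and were grown on gelatin in serum with leukemia inhibitory factor and the 2 inhibitors PD0325901 (of MEK) and CHIR99021 (of GSK3, which activates Wnt signalling). The groups are Mock, Auxin (50 µM indole-3-acetic acid for 96 h) and Reintroduction (auxin removed again, for 4.5 h), with 3 biological replicates each. The comparisons ask how transcripts differ after auxin, given to deplete Suz12, and how they stand shortly after washout, meant to let Suz12 return. No group lacked the tag, so Suz12 loss and auxin itself cannot be told apart. Nor can Suz12 return and the washout itself. The protein was not analysed here.

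T-box factors bind DNA through a shared domain, the T-box, and act as activators or repressors at a common DNA half-site. T and Eomes mark the primitive streak and are induced there by Wnt and Nodal signals, Tbx6 acts in paraxial mesoderm, and Tbx1, Tbx2, Tbx3, Tbx4, Tbx5, Tbx18 and Tbx20 pattern the pharynx, limbs and heart. Tbx3 is also part of the factor network of naive stem cells. PRC2 methylates histone H3 at CpG-rich promoters of developmental regulators, many T-box genes among them, which are held at low expression in stem cells.

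To show the CpG content of these promoters, the 250 bases before the start of 3 genes that moved in different ways are printed 5′ to 3′ on the gene's strand, from RefSeq (GRCm38.p6, the build also called mm10). Capitals mark CpG dinucleotides. The regions are chr17:8434173-8434422 on the plus strand for T, chr9:118477939-118478188 on the plus strand for Eomes and chr9:87731261-87731510 on the minus strand for Tbx18.
T: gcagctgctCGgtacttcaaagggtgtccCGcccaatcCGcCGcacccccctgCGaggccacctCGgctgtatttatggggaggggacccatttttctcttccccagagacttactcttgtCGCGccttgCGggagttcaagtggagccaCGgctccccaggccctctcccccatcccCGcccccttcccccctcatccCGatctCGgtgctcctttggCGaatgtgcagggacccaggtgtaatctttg
Eomes: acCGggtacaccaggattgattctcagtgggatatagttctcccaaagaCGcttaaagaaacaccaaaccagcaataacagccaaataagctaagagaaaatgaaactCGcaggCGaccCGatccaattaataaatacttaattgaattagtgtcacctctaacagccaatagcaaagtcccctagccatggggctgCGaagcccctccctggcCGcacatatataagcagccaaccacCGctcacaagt
Tbx18: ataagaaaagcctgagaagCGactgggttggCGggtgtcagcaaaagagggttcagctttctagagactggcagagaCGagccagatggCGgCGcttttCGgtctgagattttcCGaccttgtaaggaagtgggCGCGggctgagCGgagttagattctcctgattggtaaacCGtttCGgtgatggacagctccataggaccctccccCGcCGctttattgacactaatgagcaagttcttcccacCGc
These windows held 14 CpG dinucleotides at T, 8 at Eomes and 15 at Tbx18. Of the 10 genes, 7 had an entry, while Tbx2, Tbx3 and Tbx5 had none. The other counts were 22 at Tbx20, 6 at Tbx4, 6 at Tbx6, and 17 and 10 at the 2 starts of Tbx1. The window of Tbx4 lies before a RefSeq start that is inside the gene as counted here. The windows of Tbx1 lie before RefSeq starts that are upstream of the gene as counted here. Over all 32851 promoters of the table the median was 6, with quartiles of 2 and 16, so that the T-box windows ranged from the median to above the upper quartile. The T-box half-site AGGTGT, searched on both strands, had 1 match in the window of T and 1 in that of 1 start of Tbx1, and 11.8% of all promoters held a match. The Wnt-responsive TCF/LEF motif CTTTGNT, also searched on both strands, had 1 match at Eomes, and 16.0% of all promoters held one. A match is a description of the letters in this window only.

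The libraries held between 44341283 and 113931419 counts. Markers of pluripotent cells were high in every group: the summed level of 8 such genes lay between 5691 and 5802 CPM (counts scaled to a common library size with TMM) in Mock, between 7409 and 7906 in Auxin and between 5591 and 5658 in Reintroduction. Suz12 mRNA, which the degron does not act on directly, had 133.1 ± 6.62 CPM in Mock, 141.3 ± 16.9 in Auxin and 167.6 ± 4.47 in Reintroduction (SD, n = 3). Values followed exon length differently between the groups, with a slope of log2 CPM per doubling of length between -0.05 and -0.001 in the Mock libraries, between 0.15 and 0.25 in Auxin and between 0.18 and 0.19 in Reintroduction. Results whose call changed when this trend was removed are named below. Without TMM factors, the scaling that edgeR applies to library totals, the all-gene median of the log2 fold change moved from 0.05 to 0.26 in Auxin against Mock and from 0.03 to 0.16 in Reintroduction against Mock. The share of higher genes among all calls then moved from 52.4% to 63.2% in Auxin against Mock.

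In Auxin against Mock, 7 of the 9 tested T-box genes changed. Tbx5, Tbx18, Tbx2 and Tbx3 rose, and T, Tbx20 and Eomes fell, while Tbx4 and Tbx6 did not pass the test. Over all genes tested, 72.9% were called in this comparison (edgeR quasi-likelihood test, adjusted p under 0.05), 38.2% higher and 34.7% lower, so 7 of 9 is near the background. With a change of at least 2-fold required as well, 4 of the 9 were called (T, Tbx2, Tbx5 and Tbx18), against 31.8% of all genes, 19.8% higher and 11.9% lower. The libraries of the 2 groups did not overlap for 7 of the 9, against 74.3% of all genes. The median log2 fold change was 1.00 over the 9 T-box genes and 0.05 over all genes tested.

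**Figure D1:**
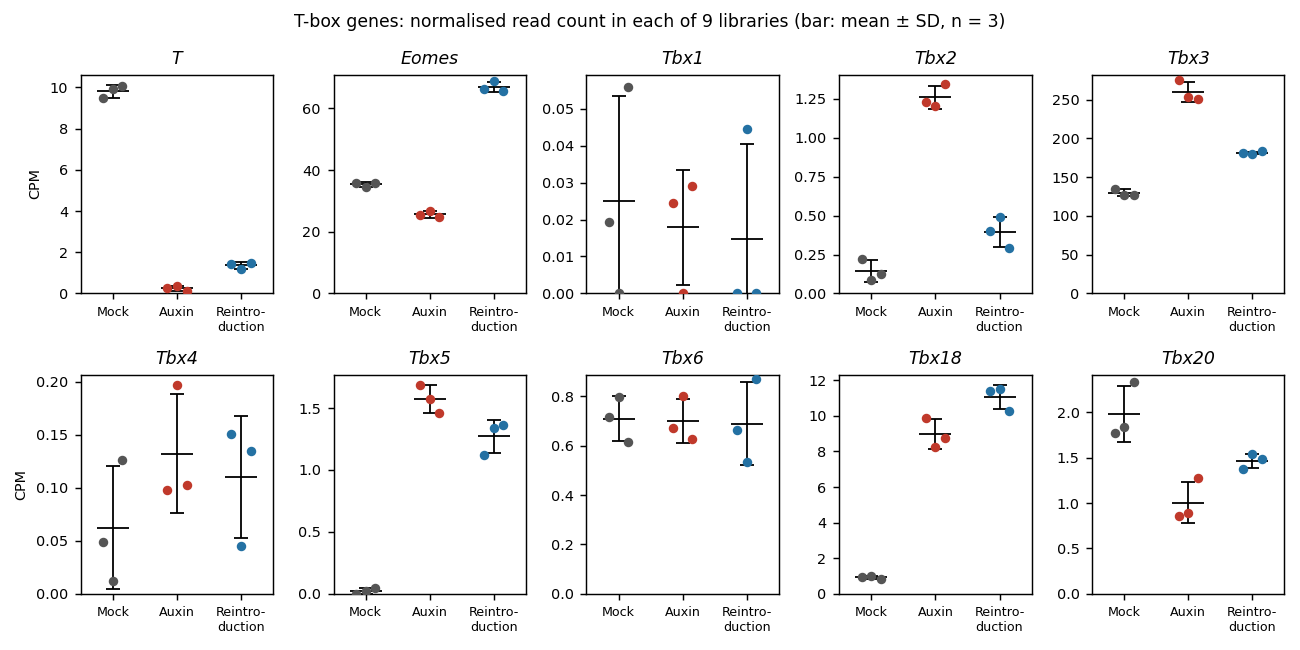
Normalised read count (CPM, linear axis from 0, 1 scale per gene) of each T-box gene in 9 libraries; points are libraries and bars the mean ± SD of 3. T is near 9.82 CPM in Mock and under 0.4 in Auxin, Tbx5 is near 0 in Mock only, and Eomes is highest in Reintroduction.

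T is the founding member of the family, needed for posterior mesoderm and the notochord, and a direct target of Wnt signalling. Its level was 9.47, 9.91 and 10.1 CPM in Mock replicates 1 to 3, 0.281, 0.367 and 0.117 CPM in Auxin, and 1.41, 1.18 and 1.48 CPM in Reintroduction. The 3 groups did not overlap, and each Auxin library lay below each Reintroduction library. T (ENSMUSG00000062327.10; mm10 chromosome 17, 8434423 to 8442496) fell by 5.23 on the log2 scale in Auxin against Mock (SE 0.21, adjusted p = 3.36e-10), that is 37.6-fold lower, with 59 counts left in Auxin against 2517 in Mock. The drop was the largest in size among the T-box genes that fell. After washout it rose by 2.40 against Auxin (SE 0.24, adjusted p = 4.18e-06), a 5.27-fold rise, and stayed 7.14-fold below Mock (log2 fold change -2.84, SE 0.17, adjusted p = 2.76e-08). These last 2 comparisons share the Reintroduction libraries, and the first 2 share the Auxin libraries. In bulk RNA, fewer cells that express a gene and less RNA per cell cannot be told apart.

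Evx1 and Mixl1, other genes of the primitive streak, also fell in Auxin. The summed level of 8 streak and mesoderm markers, T among them, lay between 15.7 and 16.7 CPM in Mock, between 0.993 and 1.44 CPM in Auxin and between 4.10 and 4.88 CPM in Reintroduction. T made up most of the sum in Mock, where Evx1 had a mean of 3.63 CPM and Mixl1 of 2.22 CPM. The number of the 8 with a mean below 1 CPM was 5 in Mock, 8 in Auxin and 6 in Reintroduction. Msgn1 was at 0 counts in each Mock library and Lhx1 in each Auxin library. Of the 5 that were tested, 3 (T, Evx1 and Mixl1) fell in Auxin and 2 (Gsc and Wnt3) did not pass the test. Over all genes tested, 34.7% were called lower. The part of a change in the number of streak-like cells in the fall of T was not tested.

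Eomes, a factor of the streak, definitive endoderm and trophoblast, followed another course. Its level was 35.9, 34.5 and 35.8 CPM in Mock, 25.4, 26.9 and 24.6 CPM in Auxin, and 66.2, 68.8 and 65.8 CPM in Reintroduction. The Auxin libraries were the lowest and the Reintroduction libraries the highest, with no overlap between any of the groups. Eomes (ENSMUSG00000032446.14; chromosome 9, 118478212 to 118486132) was 1.38-fold lower in Auxin than in Mock (log2 fold change -0.46, SE 0.053, adjusted p = 4.80e-06). It was 2.61-fold higher in Reintroduction than in Auxin (log2 fold change 1.38, SE 0.054, adjusted p = 1.15e-09) and 1.89-fold higher than in Mock (0.92, SE 0.053, adjusted p = 2.09e-08). T and Eomes thus stood on opposite sides of Mock in the Reintroduction libraries. The summed level of 7 trophoblast markers, Eomes among them, lay between 62.6 and 65.8 CPM in Mock, between 108 and 119 CPM in Auxin and between 110 and 115 CPM in Reintroduction. Eomes itself was the larger part of that sum in Mock and in Reintroduction, and Tfap2c, with means of 27.2, 86.6 and 45.0 CPM in the 3 groups, was the larger part in Auxin. Of these markers, Elf5 was too low to be tested. Of the 6 tested, 4 were called higher and 2 lower (Eomes and Cdx2) in Auxin against Mock, against 38.2% and 34.7% of all genes tested. The part of trophoblast-like cells in the course of Eomes was not tested.

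Tbx6, which directs cells to paraxial mesoderm, did not pass the test in any comparison. It had 0.718, 0.797 and 0.616 CPM in Mock, 0.671, 0.800 and 0.628 CPM in Auxin, and 0.665, 0.535 and 0.870 CPM in Reintroduction, and all groups overlapped. The log2 fold changes were -0.02 in Auxin against Mock (SE 0.22, adjusted p = 0.928), 0.01 in Reintroduction against Auxin (SE 0.22, adjusted p = 0.986) and -0.02 in Reintroduction against Mock (SE 0.22, adjusted p = 0.947). Their sign changed with the processing. The ratio of summed counts of Auxin to Mock, scaled by depth, was 0.981, with a 95% interval from 0.788 to 1.22 (Clopper-Pearson, counting error only).

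Among the T-box genes named at the start, Tbx3 had the highest level per exon length in every group. It had 135.2, 127.4 and 127.3 CPM in Mock, 274.8, 253.3 and 251.3 CPM in Auxin, and 181.3, 179.8 and 183.04 CPM in Reintroduction. No groups overlapped, and the Reintroduction libraries lay between the other 2 groups. Tbx3 (ENSMUSG00000018604.18; chromosome 5, 119670669 to 119684724) was higher by 1.00 on the log2 scale in Auxin against Mock (SE 0.055, adjusted p = 4.58e-09). It fell by 0.52 in Reintroduction against Auxin (SE 0.054, adjusted p = 6.05e-06) and remained 0.48 above Mock (SE 0.054, adjusted p = 6.39e-06). Tbx3 shares exon sequence with the antisense gene Tbx3os1, and reads were counted without strand. By the default of featureCounts, reads in the shared sequence are left out, so the count of each gene rests on its unshared part. The counts of Tbx3os1 itself rose from 1.15 to 5.78 CPM in Auxin (log2 fold change 2.33, adjusted p = 9.17e-09) and stood at 3.07 CPM in Reintroduction (-0.90 against Auxin, adjusted p = 7.71e-05). Pluripotency markers were also higher in Auxin, with 7 of 8 called higher and 1 (Pou5f1) lower, against 38.2% and 34.7% of all genes tested. The part of these markers in the level of Tbx3 was not tested. Tbx3os2, which lies 371 bp from Tbx3, went from 0.141 to 0.770 and then 0.187 CPM (2.43 and -2.14, adjusted p = 1.59e-04 and 9.99e-04).

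Tbx2, the closest relative of Tbx3 and like it mainly a repressor, was lower by far. It had 0.223, 0.0845 and 0.126 CPM in Mock, 1.23, 1.21 and 1.34 CPM in Auxin, and 0.402, 0.490 and 0.294 CPM in Reintroduction. All Auxin libraries lay above all others, and the Reintroduction libraries lay above those of Mock. Tbx2 (ENSMUSG00000000093.6; chromosome 11, 85832551 to 85841948) rose 8.36-fold in Auxin (log2 fold change 3.06, SE 0.30, adjusted p = 1.14e-06). It was 3.26-fold lower in Reintroduction than in Auxin (-1.71, SE 0.27, adjusted p = 2.22e-04) and 2.56-fold above Mock (1.36, SE 0.34, adjusted p = 3.63e-03). Like Tbx3, it stood between the other 2 groups after washout. The Mock level rests on 39 counts in all, against 285 in Auxin and 78 in Reintroduction.

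Tbx5, which is needed for the heart and the forelimb, went from near silence to a low level. It had 0, 2 and 3 counts in Mock replicates 1 to 3, 138, 120 and 100 counts in Auxin, and 89, 60 and 111 counts in Reintroduction. The Mock counts correspond to 0, 0.0241 and 0.0420 CPM, the Auxin counts to 1.68, 1.57 and 1.46 CPM, and the Reintroduction counts to 1.12, 1.34 and 1.36 CPM. Tbx5 (ENSMUSG00000018263.11; chromosome 5, 119832668 to 119885219) had a log2 fold change of 6.22 in Auxin against Mock (SE 0.38, adjusted p = 1.42e-08). The ratio of summed counts was 81.3, with a 95% interval from 34.5 to 252 for counting error. This interval treats each count as independent, and it is too narrow where both mates of a read pair were counted. With so few Mock counts the size depends on single libraries, and the log2 fold change was 5.52 without Mock replicate 1 and 6.98 without Mock replicate 3. In Reintroduction against Auxin the log2 fold change was -0.31 (SE 0.21), which did not pass the test (adjusted p = 0.247), although each Reintroduction library lay below each Auxin library. The gene was still 5.91 above Mock on the log2 scale (SE 0.40, adjusted p = 7.39e-08), or 5.19 and 6.65 without those libraries. Tbx4, the hindlimb counterpart of Tbx5, had 15 counts in Mock, 30 in Auxin and 25 in Reintroduction, with overlap between all groups. Its log2 fold changes of 1.14 (SE 0.67, adjusted p = 0.140), -0.16 (SE 0.62, adjusted p = 0.848) and 0.98 (SE 0.69, adjusted p = 0.223), in the order of the comparisons above, did not pass the test. Without Mock replicate 3, which holds 9 of the 15 Mock counts, Tbx4 was called higher in Auxin than in Mock (1.99, adjusted p = 0.0362).

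Tbx2 and Tbx4, and likewise Tbx3 and Tbx5, lie as neighbours in the genome, an old arrangement of this family. The gap is 44.5 kb between Tbx2 and Tbx4 on chromosome 11, with 0 tested genes between them, and 148 kb between Tbx3 and Tbx5 on chromosome 5, with 1 (Tbx3os2). Bcas3, 6.49 kb from Tbx2, changed by 0.20 on the log2 scale in Auxin against Mock (adjusted p = 0.0178), and Brip1, beyond Tbx4, by -0.07 (adjusted p = 0.546). Rbm19, beyond Tbx5, fell by 0.93 (adjusted p = 1.66e-08), and Gm16063, on the other side of Tbx3, fell by 2.22 (adjusted p = 3.54e-06). Next to T, Pde10a rose by 1.71 (adjusted p = 6.87e-06), or by 1.11 with the trend of exon length removed, and T2 changed by -0.41 (adjusted p = 0.412). Next to Tbx6, which did not pass the test, Ppp4c fell by 1.03 (adjusted p = 6.93e-08) and Ypel3 rose by 0.40 (adjusted p = 3.76e-04). Next to Eomes, Platr11 fell by 0.93 (adjusted p = 1.43e-04) and rose by 1.00 after washout (adjusted p = 2.00e-04), and Golga4 rose by 1.06 in Auxin (adjusted p = 1.01e-03). Next to Tbx18, Gm9540 fell by 0.63 (adjusted p = 4.30e-04) and Gm5066 rose by 1.81 (adjusted p = 8.60e-08). D030062O11Rik, which overlaps Tbx18, rose by 3.30 (adjusted p = 0.0134) from a mean of 0.0140 to 0.129 CPM. Its call was lost without Mock replicate 1 (adjusted p = 0.0590) or Auxin replicate 1 (adjusted p = 0.0579). Next to Tbx20, Gm10180 fell by 0.55 (adjusted p = 0.0198) and Dpy19l1 changed by -0.06 (adjusted p = 0.322). Next to Tbx1, Gnb1l changed by -0.03 (adjusted p = 0.763) and Sept5 by 0.33 (adjusted p = 0.479). With the trend of exon length removed, the calls of Bcas3, Gm9540 and Gm10180 were lost, and Brip1 (-0.45, adjusted p = 1.64e-04) and Dpy19l1 (-0.35, adjusted p = 9.80e-06) were called lower. The call of Bcas3 was also lost without Mock replicate 2, without Auxin replicate 2 and under the DESeq2 Wald test (adjusted p = 0.0634). That of Gm10180 was also lost without Auxin replicate 1 or 3, under total-count scaling (adjusted p = 0.106) and with no filter (adjusted p = 0.0656).

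Tbx18, a repressor of the epicardium, sinus node and somites, rose and did not fall back. It had 0.941, 1.00 and 0.839 CPM in Mock, 9.89, 8.28 and 8.75 CPM in Auxin, and 11.4, 11.5 and 10.3 CPM in Reintroduction. Every library of the other 2 groups lay far above Mock, and the Reintroduction libraries lay above those of Auxin. Tbx18 (ENSMUSG00000032419.8; chromosome 9, 87702800 to 87731260) was 9.63-fold higher in Auxin than in Mock (log2 fold change 3.27, SE 0.11, adjusted p = 8.96e-11) and 11.9-fold higher in Reintroduction than in Mock (3.57, SE 0.11, adjusted p = 2.36e-10). The further difference of 0.30 between Reintroduction and Auxin passed the test (SE 0.092, adjusted p = 0.0160), but not without Reintroduction replicate 1 (0.26, adjusted p = 0.0722), without Reintroduction replicate 2 (0.27, adjusted p = 0.0577) or under total-count scaling (0.22, adjusted p = 0.0651). Tbx18 shares exon sequence with D030062O11Rik, on the opposite strand, so its counts rest on its unshared part, like those of Tbx3.

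Tbx20, an early cardiac factor, moved the other way. It had 1.78, 1.83 and 2.34 CPM in Mock, 0.854, 0.892 and 1.27 CPM in Auxin, and 1.38, 1.54 and 1.48 CPM in Reintroduction. The groups did not overlap, with Auxin lowest and Mock highest. Tbx20 (ENSMUSG00000031965.14; chromosome 9, 24720812 to 24774303) was 1.97-fold lower in Auxin than in Mock (log2 fold change -0.98, SE 0.18, adjusted p = 3.08e-04). The changes of 0.55 in Reintroduction against Auxin (SE 0.19, adjusted p = 0.0278) and -0.43 in Reintroduction against Mock (SE 0.18, adjusted p = 0.0442) passed the test narrowly. The first was lost in 6 of 16 alternatives and the second in 7 of 16, where the adjusted p reached 0.118 and 0.155. Those losses came under total-count scaling, under filter settings for the second, and without Auxin replicate 1 or 2 or any 1 Reintroduction replicate for the first, and without Mock replicate 3 or any 1 Reintroduction replicate for the second.

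Tbx1, which patterns the pharyngeal arches, was too low to be tested, with 6 counts in Mock, 4 in Auxin and 2 in Reintroduction. Counts this low allow no statement on its direction: the ratio of Auxin to Mock was 0.757, with a 95% interval from 0.157 to 3.19 for counting error. The summed level of 6 cardiomyocyte markers, set beside the cardiac factors Tbx5, Tbx18 and Tbx20, lay between 4.24 and 5.44 CPM in Mock, between 5.52 and 5.68 CPM in Auxin and between 3.53 and 4.73 CPM in Reintroduction. Most of that sum was Actn2, with means of 3.03, 4.87 and 2.97 CPM. Of the 3 cardiomyocyte markers tested, 1 was called higher, 1 lower and 1 not in Auxin against Mock. The higher one was Actn2 (log2 fold change 0.68, adjusted p = 6.74e-04), for which the alternatives were not run. The lower one was Myh6, a cardiac myosin, with means of 1.14, 0.179 and 0.185 CPM (adjusted p = 5.81e-07 in Auxin against Mock). The summed level of 7 fibroblast markers lay between 17.8 and 20.02 CPM, between 39.1 and 46.4 CPM and between 37.4 and 38.8 CPM, most of it from Thy1 (17.9, 41.2 and 37.5 CPM), while 3 of the 7 (Col3a1, Dcn and Lum) were at 0 counts in every Auxin library. The summed level of 7 primitive endoderm markers was at most 7.47 CPM in the Mock libraries, between 22.7 and 23.6 CPM in Auxin and between 14.2 and 16.0 CPM in Reintroduction. All 7 of these genes were called higher in Auxin than in Mock, against 38.2% of all genes tested. The part of such cells in the rise of the T-box genes was not tested.

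In Reintroduction against Auxin, 4 of the 9 tested T-box genes were called higher (T, Eomes, Tbx20 and Tbx18) and 2 lower (Tbx2 and Tbx3), where 50.8% of all genes were called, 25.3% higher and 25.5% lower. Without TMM factors 39.8% of all calls in this comparison were higher, and 49.8% with them. With at least a 2-fold change, 3 of the 9 were called (T, Eomes and Tbx2), against 10.9% of all genes, 4.11% higher and 6.8% lower. The median log2 fold change was 0.01 over the T-box genes and 0.003 over all genes. In Reintroduction against Mock, 5 were higher (Tbx5, Tbx18, Tbx2, Eomes and Tbx3) and 2 lower (T and Tbx20), where 67.9% of all genes were called, 34.5% higher and 33.5% lower. With at least a 2-fold change, 4 of the 9 were called (T, Tbx2, Tbx5 and Tbx18), against 22.3% of all genes, 14.9% higher and 7.4% lower. The medians were 0.92 and 0.03. The libraries did not overlap for 7 of the 9 in each of these 2 comparisons, against 58.2% and 75.2% of all genes.

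**Figure D2:**
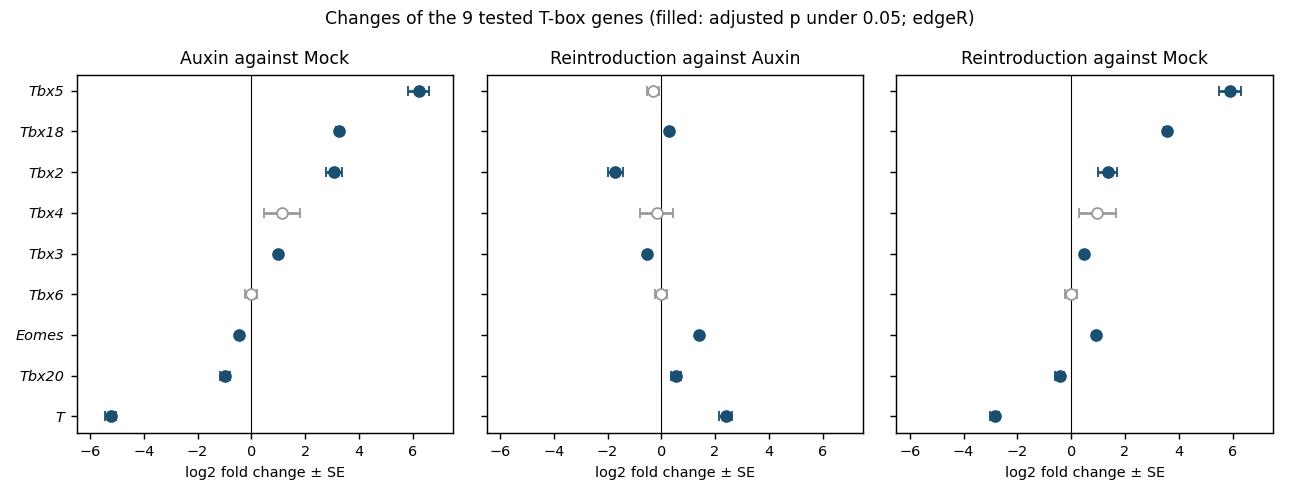
Log2 fold change ± SE of the 9 tested T-box genes in 3 comparisons that share libraries, in 1 order of genes; filled points have an adjusted p under 0.05 (edgeR). Tbx5 (6.22) and T (-5.23) lie at the ends in Auxin against Mock, and Tbx5 (5.91) and T (-2.84) do so in Reintroduction against Mock.

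Levels were compared between genes as RPKM, which is CPM divided by exon length in kb. For Tbx3 and Tbx18 the full exon length was used although reads in shared sequence are left out, so their RPKM may be too low. In Mock the order began with Tbx3 (19.6 ± 0.68 RPKM; SD, n = 3), Eomes (8.51 ± 0.19) and T (4.24 ± 0.13). Tbx6 (0.394 ± 0.050), Tbx20 (0.288 ± 0.045) and Tbx18 (0.197 ± 0.017) followed, and the last 4, Tbx2, Tbx4, Tbx1 and Tbx5, lay at or under 0.0399 RPKM. Among those 4 the neighbours in the order differed by about their spread or less. In Auxin, Tbx3 (39.2 ± 1.97) and Eomes (6.17 ± 0.27) were followed by Tbx18 (1.90 ± 0.18). Tbx6 (0.388 ± 0.050), Tbx2 (0.348 ± 0.020) and Tbx5 (0.336 ± 0.024) did not differ beyond their spread, nor did Tbx20 (0.146 ± 0.033) and T (0.110 ± 0.055). In Reintroduction the order was Tbx3 (27.4 ± 0.24), Eomes (16.1 ± 0.39), Tbx18 (2.35 ± 0.15) and T (0.586 ± 0.068), then Tbx6 (0.382 ± 0.094), Tbx5 (0.272 ± 0.029), which did not differ beyond their spread, Tbx20 (0.213 ± 0.012) and Tbx2 (0.109 ± 0.027). Tbx4 and Tbx1 were lowest in Auxin and Reintroduction. T was thus the third of the 10 genes in Mock and, with Tbx20, below the first 6 in Auxin.

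**Figure D3:**
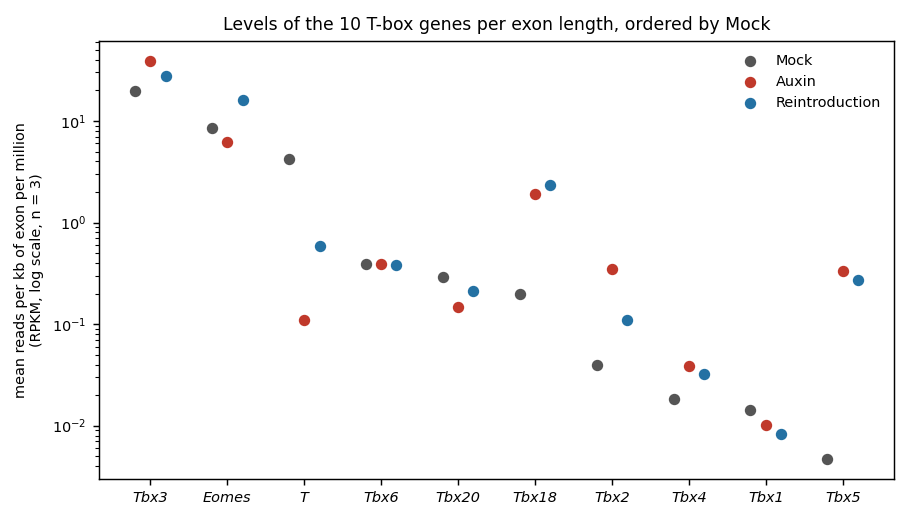
Mean RPKM (CPM per kb of exon, log axis) of the 10 T-box genes in Mock, Auxin and Reintroduction (n = 3 each), ordered by the Mock level. Tbx3 and Eomes are the highest in each group, and Tbx5 moves from 0.00471 RPKM in Mock to 0.336 in Auxin.

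The list of other T-box genes held 7, of which 4 were tested: 2 rose, 1 fell and 1 did not pass the test in Auxin against Mock. Over all genes tested, 38.2% were called higher and 34.7% lower. The 2 that rose were named by rule, and Tbx19 and Tbr1 after their values were seen. Tbx15, the closest relative of Tbx18, rose with it, with 1.08, 1.40 and 0.839 CPM in Mock, 10.2, 11.3 and 10.2 CPM in Auxin, and 8.70, 10.7 and 9.02 CPM in Reintroduction. Its log2 fold change was 3.25 in Auxin against Mock (SE 0.15, adjusted p = 9.60e-10), -0.17 in Reintroduction against Auxin (SE 0.13, adjusted p = 0.292) and 3.08 in Reintroduction against Mock (SE 0.15, adjusted p = 5.17e-09). Mga, a large protein of a variant PRC1 complex that also holds a T-box, rose by 1.04 in Auxin (SE 0.24, adjusted p = 3.68e-03), with 448, 247 and 501 CPM in the 3 Auxin libraries against 158, 219 and 206 CPM in Mock. Auxin replicate 2 lay near the Mock libraries, and with the trend of exon length removed the change was 0.33 and not called (adjusted p = 0.116). Tbx19, a pituitary factor, fell from 73 counts in Mock to 7 in Auxin (log2 fold change -3.13, SE 0.67, adjusted p = 9.79e-04) and 2 in Reintroduction. The log2 fold change of Tbx19 in Auxin was -2.52 without Auxin replicate 1 and -4.33 without Auxin replicate 3. Tbr1, a cortical factor, changed by 0.82 in Auxin (adjusted p = 0.231). It was called higher in Reintroduction against Mock (1.81, adjusted p = 0.0109), but not without Mock replicate 1 (1.38, adjusted p = 0.0587). Tbx10, Tbx21 and Tbx22 were too low to be tested. Tbx10 had 0 counts in every library, Tbx21 had 44 in Mock, 11 in Auxin and 1 in Reintroduction, and Tbx22 had 0, 2 and 2.

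Genes that induce T-box factors or act beside them did not move as blocks. Of 17 ligands, receptors and inhibitors of the Nodal, Wnt, BMP and FGF pathways, 6 rose and 6 fell in Auxin against Mock. Of all genes tested, 38.2% were called higher and 34.7% lower. The median log2 fold change of the list was -0.12, against 0.05 over all genes tested. The Nodal inhibitors Lefty1 and Lefty2 fell by 2.45 (adjusted p = 9.73e-07) and by 1.70 (adjusted p = 1.70e-05), and the Nodal receptor Acvr1b rose by 1.11 (adjusted p = 1.19e-09). The Wnt co-receptor Lrp6 rose by 0.68 (adjusted p = 4.94e-04), a call that was lost with the trend of exon length removed (0.04, adjusted p = 0.550). A pair of ligands of the streak was picked after their values were seen: Wnt3a fell from 0.505 ± 0.15 to 0.0873 ± 0.030 CPM in Auxin (log2 fold change -2.50, adjusted p = 8.50e-05) and had 0.402 ± 0.10 CPM in Reintroduction (2.14 against Auxin, adjusted p = 8.99e-04), and Fgf8 fell by 2.28 in Auxin (adjusted p = 6.33e-03). Both rest on few counts: Wnt3a had 131 in Mock and 20 in Auxin, and Fgf8 had 46 and 8. The other ligands of the list, beside the Lefty inhibitors, went different ways in Auxin against Mock. Nodal rose by 0.64 (adjusted p = 1.06e-06), Gdf3 fell by 0.77 (adjusted p = 1.14e-07) and Bmp4 fell by 1.24 (adjusted p = 8.01e-10). Wnt3, Wnt8a and Fgf4 did not pass the test. The alternatives were not run for these other ligands. In Reintroduction against Auxin, 4 genes of this list rose and 5 fell, against 25.3% and 25.5% of all genes tested. Lefty1 fell by a further 1.29 (adjusted p = 4.00e-04).

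Of 14 tested partner factors of 17 listed, 8 rose and 4 fell in Auxin against Mock, with a median of 0.17. Over all genes tested, 38.2% were called higher and 34.7% lower. The cardiac and endodermal factors Isl1 and Gata4 rose by 2.39 (adjusted p = 1.21e-06) and 2.05 (adjusted p = 4.16e-09). Ripply1, a corepressor that binds T-box proteins, fell by 1.23 (adjusted p = 6.76e-06), and the Wnt effector Tcf7 was 2.29-fold lower (adjusted p = 8.66e-09). In Reintroduction against Auxin, 2 rose and 6 fell, against 25.3% and 25.5% of all genes tested. Tcf7 rose by 1.09 (adjusted p = 9.33e-08), while Ripply1 fell by a further 1.40 (adjusted p = 2.82e-05). Gata4 fell by 0.97 (adjusted p = 8.18e-06) and Isl1 by 0.57 (adjusted p = 0.0398). The alternatives were not run for Ripply1, Gata4 and Isl1 in this comparison.

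Of 20 listed targets and streak or mesoderm genes, 13 were tested, and 4 rose and 4 fell in Auxin against Mock, with a median of -0.13. Over all genes tested, 38.2% were called higher and 34.7% lower. Evx1, a posterior streak factor, had 3.85, 3.26 and 3.78 CPM in Mock, 0.415, 0.446 and 0.365 CPM in Auxin and 2.30, 1.78 and 2.25 CPM in Reintroduction. It fell by 3.14 in Auxin (SE 0.16, adjusted p = 2.65e-09) and rose by 2.37 after washout (SE 0.17, adjusted p = 1.99e-07), with no overlap between groups. Evx1 shares exon sequence with Evx1os, so its counts rest on its unshared part, like those of Tbx3. Mixl1, another streak factor, fell by 2.52 in Auxin (adjusted p = 1.58e-06). Its log2 fold change after washout was 0.48 (adjusted p = 0.201), with overlapping libraries, and 0.76 (adjusted p = 0.0350) without Reintroduction replicate 3. Foxa2 and Snai1 rose by 2.14 (adjusted p = 3.62e-06) and 1.10 (adjusted p = 5.83e-06) in Auxin and fell by 1.92 (adjusted p = 2.94e-05) and 1.24 (adjusted p = 7.40e-06) after washout. In Reintroduction against Auxin, 4 of the 13 rose and 5 fell, against 25.3% and 25.5% of all genes tested. Cdx2, a posterior factor from the trophoblast list that was singled out after its values were seen, fell from 1.70 ± 0.26 to 0.0825 ± 0.12 CPM in Auxin (-4.32, adjusted p = 6.78e-05) and had 0.783 ± 0.14 CPM in Reintroduction (3.18 against Auxin, adjusted p = 1.97e-03). Auxin replicate 2 holds 17 of its 19 Auxin counts, and without it these values were -6.84 and 5.67.

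**Figure D4:**
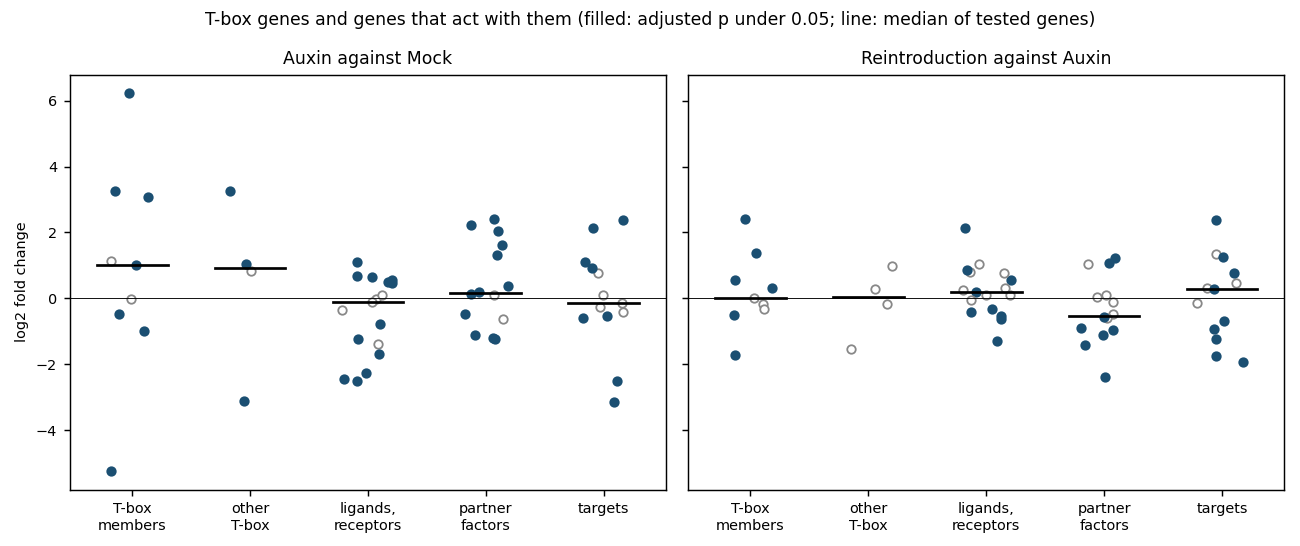
Log2 fold change of each tested gene (points, filled where the adjusted p is under 0.05) in 5 lists, for Auxin against Mock and for Reintroduction against Auxin, which share the Auxin libraries; lines are list medians. The T-box members span -5.23 to 6.22 in Auxin against Mock, and each list holds genes of both directions.

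The genes whose pattern over the 9 libraries was most like that of a called T-box gene, among 15924 genes that averaged 1 CPM or more in some group, were Patz1 for T, Tpm4 for Eomes, Dennd1a for Tbx3, Tmem241 for Tbx2, Jcad for Tbx5, F2r for Tbx18 and Gm16284 for Tbx20. The likeness (Pearson's r of log2 CPM) lay between 0.979 and 0.998 and is a description of points that fall into 3 groups. A likeness of at least 0.95 was common for some and rare for others: 1849 genes reached it for T, 157 for Eomes and 10 for Tbx20. Mean levels of Patz1 were 98.8 CPM (Mock), 70.0 CPM (Auxin) and 81.6 CPM (Reintroduction), so a like pattern does not mean a like size of change.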

How the data were processed

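Polyadenylated RNA of 9 libraries was sequenced in paired-end reads of 75 bp, per the labels' protocols. The authors deposited raw read counts per gene, with the summed exon length of each gene, made with featureCounts 2.0.6 over exons of an mm10 annotation without a strand setting, per the file headers. Trim Galore 0.6.10, FastQC 0.12.1, Bowtie2 2.5.3 and SAMtools 1.20 are also named in the submitters' processing notes, with no roles given. The command did not ask for read pairs to be counted once: in Auxin replicate 1, 4035 genes held even counts from 2 to 10 and 2963 held odd counts from 1 to 9, so counts are probably of mates and fragments are fewer. By the tool's default, reads that map to several genes are left out.

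Symbols matched 48058 of 48440 gene identifiers. Genes were filtered with filterByExpr and scaled with TMM, and all 9 libraries entered 1 edgeR 4.0.16 quasi-likelihood fit (R 4.3.3, limma 3.58.1) with group as the term. P-values are two-sided and adjusted by Benjamini-Hochberg over the 20838 genes tested. Standard errors come from the F statistic. CPM uses TMM-scaled totals, and RPKM divides it by exon length. Intervals of ratios of summed counts cover counting error only and treat each count as independent, so they are too narrow where both mates were counted. The series' design text calls the replicates biological. The labels say only that RNA was purified in triplicate and name no culture or date, so p-values measure the spread between these samples. The script was tested on simulated data in which far fewer genes changed than were called here and no length trend was set. That test does not cover these features of the data. The members and lists were chosen with earlier results of these data known. Every member is described, and for each list the text names the 2 largest rises and the 2 largest falls among called genes of at least 1 CPM in Auxin against Mock. Further genes are marked as singled out, as other ligands of a list, as neighbours or as cell type markers. Nearest tested genes and the gene most like each called member are also named. Alternatives were total-count scaling, DESeq2 1.42.0 size factors and Wald test, no filter, a filter of 1 CPM in 3 libraries, fits of 2 groups, a replicate block, halved counts, removal of length and GC trends, a 2-fold rule, and leaving out each library.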

Additional observations from a re-analysis of the deposited data

How the results depend on the processing

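The number of T-box genes called was 7 (Auxin against Mock), 6 (Reintroduction against Auxin) and 7 (Reintroduction against Mock). A 2-fold rule gave 4, 3 and 4, with 6618, 2275 and 4653 of all genes in place of 15197, 10577 and 14153. Leaving out 1 library at a time gave 7 to 8, 4 to 6 and 6 to 7 T-box genes, and 14281 to 16194, 9181 to 11593 and 13030 to 13438 of all genes. Replicate numbers did not pair the samples (correlations of deviations between -0.172 and 0.055), and a fit with the replicate block gave 7, 6 and 7 T-box genes. Among member values under the alternatives, 380 kept direction and call, 16 lost the call, 1 gained it and 24 changed sign. T, Eomes, Tbx2 and Tbx3 kept every call in the alternatives run other than the 2-fold rule, under which Tbx3 was not called in any comparison and Eomes only in Reintroduction against Auxin. The sign changes were those of Tbx6 (22) and Tbx4 (2), none of them called. For Tbx6, in the order of comparisons above, the log2 values were 0.19, -0.074 and 0.11 without TMM factors, 0.018, -0.014 and 0.0038 with counts halved, 0.24, -0.060 and 0.18 with the length trend removed, and 0.35, -0.029 and 0.32 with the length and GC trends removed. In fits of 2 groups the first pair was 0.0081 and -0.0047. With single libraries left out, Tbx6 ranged from -0.14 to 0.050, from -0.21 to 0.14 and from -0.25 to 0.11, and Tbx4 in Reintroduction against Auxin from -0.43 to 0.22. For Suz12 the sign changed in Auxin against Mock with the length trend removed (-0.064) and with both trends removed (-0.18, adjusted p = 4.77e-04, not called in the main result), and in Reintroduction against Mock with both removed (-0.068, adjusted p = 0.113, where the rise had been called). Among neighbours in Auxin against Mock, the sign changed without TMM factors for Brip1 (0.14), Dpy19l1 (0.15, adjusted p = 0.0345) and Gnb1l (0.18), under the 1 CPM filter for Brip1 (0.0023), Dpy19l1 (0.010) and Gnb1l (0.035), with the length trend removed for Bcas3 (-0.065) and Gm10180 (0.068), and with both trends removed for Gm10180 (0.11). With single libraries left out, Brip1 reached 0.060, Gnb1l ranged from -0.13 to 0.093 and Sept5 from -0.019 to 0.53. The cause was not tested. Genes with few counts, such as Tbx1, Tbx4 and Tbx5 in Mock, are limited by depth.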
